A study of Mus musculus with 12 samples.

Results

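The V0 membrane sector of the vacuolar proton pump (V-ATPase) was described through 10 genes of the 16570 in the deposited gene table. They were taken by symbol, as V0 subunits and accessory proteins, by a rule that uses no measured value. Earlier results of these data were known when the members were chosen. All 10 were found, and all 10 passed the filter on low counts, after which 12168 genes were tested.

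The V-ATPase is a rotary enzyme. Its V1 sector splits ATP in the cytosol, and its V0 sector carries protons through the membrane: a ring of c subunits turns against the fixed a subunit, the d subunit couples the ring to the V1 rotor, and the e subunit and the accessory proteins sit beside them. In osteoclasts, the bone-resorbing cells that form from macrophages, the pump is placed in the ruffled border facing the bone, and the acid it secretes dissolves the mineral.

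RNA was sequenced from bone marrow-derived macrophages of C57BL/6J mice aged 6 to 8 weeks, in 4 groups of 3 libraries. Cells of the first group received 1 µM RHC80267 together with RANKL at 100 ng/mL, those of the second 1 µM BMS309403 together with the same RANKL, those of the third RANKL without an inhibitor, and those of the fourth no RANKL. M-CSF, the macrophage survival factor, was present at 50 ng/mL in all 4 groups, and per the labels each treatment lasted 2 days. RANKL is the signal that turns macrophages into osteoclasts, the compound BMS309403 blocks FABP4, a fatty acid binding protein, and RHC80267 blocks diacylglycerol lipase, by their usual descriptions. For both inhibitor groups the treatment text writes RANK where it writes RANKL for the third group, and the growth text describes 4 days with RANKL to reach osteoclasts, where the treatment text gives 2. No library with an inhibitor and without RANKL was analysed here, and the labels name no vehicle. The labels do not say whether the 3 libraries of a group came from separate cultures or animals, and the p-values therefore cover only the spread among these libraries, which may be technical.

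The 12 libraries held 17760844 to 18344989 expected counts each. Summed levels of 8 osteoclast markers (among them Acp5, Ctsk and Calcr), in CPM, a count scaled to the size of its TMM-adjusted library, were 15227 to 17245 CPM with RHC80267, 6177 to 7005 with BMS309403, 7616 to 9468 with RANKL and 63.8 to 89.5 with M-CSF. The highest of the RANKL values came from RANKL replicate 1, and the others were 7976 and 7616. Summed levels of 8 macrophage markers, the labelled cell type, were 6211 to 6249, 7030.3 to 7299, 6676 to 6839 and 9601 to 10043 CPM in the RHC80267, BMS309403, RANKL and M-CSF libraries. Summed levels of 8 neutrophil markers were 600.5 to 901.0 CPM with RHC80267, 1322 to 1423 with BMS309403, 1275 to 1449 with RANKL and 981 to 1389 with M-CSF. Those of 8 stromal markers were 14.5 to 65.8, 5.46 to 8.51, 4.69 to 13.5 and 6.44 to 12.4 CPM in the RHC80267, BMS309403, RANKL and M-CSF libraries. Markers of further cells summed, over all libraries, to 21.3 to 40.2 CPM for dendritic cells, 9.07 to 15.1 for B cells and at most 1.44 for T and NK cells and 1.18 for erythroid cells. In bulk samples, fewer cells of a type and less RNA per cell cannot be told apart.

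The promoters of the members are shown because of the MITF and TFE family of transcription factors, known to drive V-ATPase genes. This family binds the letters CACGTG (the E-box core), in the longer form TCACGTG among others. Other letters that the family binds were not searched, so windows without CACGTG may hold them. RefSeq promoter windows on GRCm38.p6 of 250 bases before to 50 after a listed start were held for 8 of the 10 members, 12 windows in all. Not every listed start is the outermost start of the gene. The only Atp6v0a1 window, chr11:101010148-101010447, lies inside the gene, which begins at 101009422, so its outermost start was not searched. Atp6v0a2 and Atp6v0d2 have no entry. CACGTG, searched on both strands, was present in 3 of the 12 windows, those of Atp6v0b, Atp6v0d1 and Atp6v0e, and in 7.15% of all 32851 windows of this length. All 3 also hold TCACGTG, which contains the E-box core and occurs in 3.77% of all windows. In the sequences, written 5′ to 3′ on the gene's strand, capitals mark CACGTG.
Atp6v0b, chr4:117887280-117887579, minus strand: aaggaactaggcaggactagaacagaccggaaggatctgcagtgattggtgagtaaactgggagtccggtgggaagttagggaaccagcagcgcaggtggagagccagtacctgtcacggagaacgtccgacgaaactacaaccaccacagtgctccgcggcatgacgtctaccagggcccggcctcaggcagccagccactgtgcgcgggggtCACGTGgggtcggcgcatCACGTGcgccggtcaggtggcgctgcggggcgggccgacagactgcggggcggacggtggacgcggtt
Atp6v0d1, chr8:105566015-105566314, minus strand: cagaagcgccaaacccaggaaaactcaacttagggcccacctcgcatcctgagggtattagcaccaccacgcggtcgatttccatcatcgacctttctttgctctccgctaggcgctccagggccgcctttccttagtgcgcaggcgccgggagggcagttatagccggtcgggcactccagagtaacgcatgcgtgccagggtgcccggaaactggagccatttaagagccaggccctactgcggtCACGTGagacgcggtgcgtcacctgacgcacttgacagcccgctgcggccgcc
Atp6v0e, chr17:26676146-26676445, plus strand: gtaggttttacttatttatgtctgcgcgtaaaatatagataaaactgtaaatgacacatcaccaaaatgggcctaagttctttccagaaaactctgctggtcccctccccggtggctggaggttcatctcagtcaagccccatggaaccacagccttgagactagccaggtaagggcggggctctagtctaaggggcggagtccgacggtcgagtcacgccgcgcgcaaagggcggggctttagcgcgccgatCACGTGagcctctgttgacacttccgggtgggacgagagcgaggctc
Tcirg1, chr19:3907084-3907383, minus strand: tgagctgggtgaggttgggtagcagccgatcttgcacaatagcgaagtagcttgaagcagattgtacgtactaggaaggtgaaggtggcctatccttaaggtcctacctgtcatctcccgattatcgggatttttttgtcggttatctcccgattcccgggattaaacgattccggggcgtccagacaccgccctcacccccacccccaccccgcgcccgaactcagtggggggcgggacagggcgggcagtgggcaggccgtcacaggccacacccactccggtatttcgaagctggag
Atp6v0b has CACGTG at 2 places, whose first bases lie at −36 and −18 from the start, Atp6v0d1 has it at −3 and Atp6v0e at 4, the first transcribed base being 1. The window of Tcirg1, shown as an a subunit gene without the letters, has none, nor have its other 2 windows. TGAGTCA, the AP-1 letters, was in none of the 12 windows and in 5.20% of all windows. GGAAA, the NFAT core, was in 6 of the 12 windows, which belong to 6 of the 8 members, and in 61.3% of all windows. Some members have several windows, so the share of windows and the share of members differ. A match is a description of letters and does not show that a factor binds.

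Set side by side per transcript length, in the authors' FPKM, the members were unequal in level. Atp6v0c, which encodes the c proteolipid, of which the ring holds several copies, was the highest member in all 4 groups. It averaged 2274 ± 22.4 FPKM with RHC80267, 1939 ± 82.9 with BMS309403, 2007 ± 63.7 with RANKL and 1094 ± 28.6 with M-CSF (SD, n = 3 each). Atp6v0b, the second proteolipid of the ring, and Atp6v0e, the small e subunit, followed in that order in all 4 groups. Atp6v0a2, the a subunit best known from the Golgi, was the lowest, at 12.5 ± 0.566, 11.1 ± 0.218, 11.8 ± 0.455 and 9.73 ± 0.279 FPKM with RHC80267, BMS309403, RANKL and M-CSF. Atp6v0d2 varied most in its place: it stood at rank 5 of 10 with RHC80267, 6 with BMS309403, 5 with RANKL and 9 with M-CSF, where it averaged 18.6 ± 0.617 FPKM. Neighbours in the order overlapped between libraries only for Tcirg1 and Atp6v0d2 with RHC80267, and for Tcirg1 with Atp6v0d2 and Atp6v0d2 with Atp6ap1 with RANKL.

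**Figure D1:**
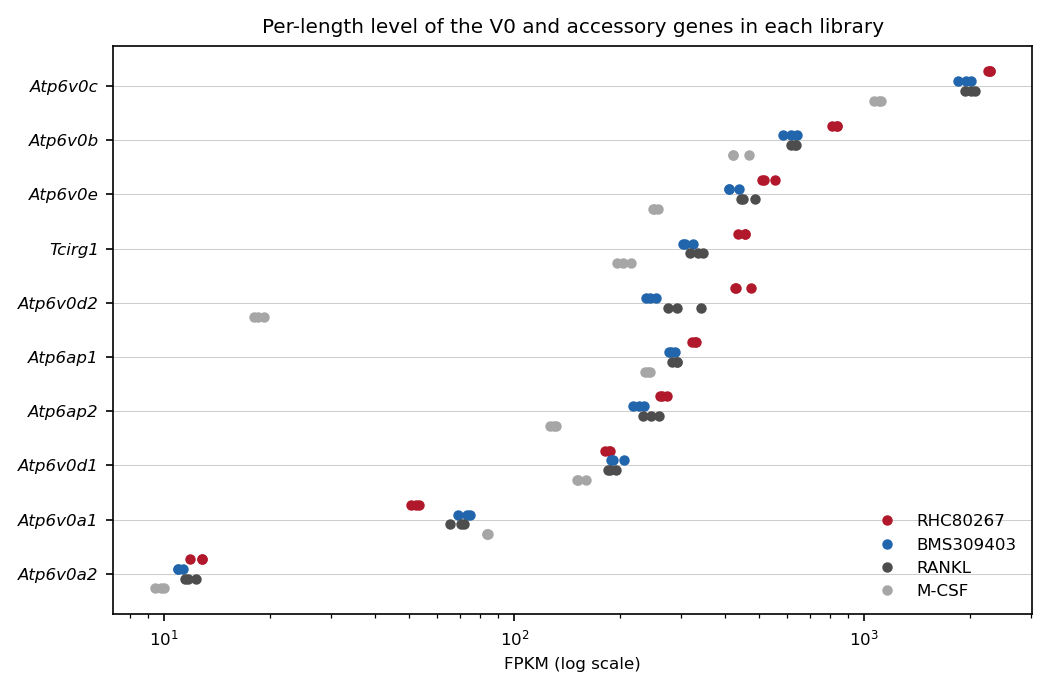
FPKM per library on a log axis for the 10 members, ordered by their level with RANKL; each point is 1 library and colours mark the 4 groups. Atp6v0c lies farthest to the right in every group, and the M-CSF points of Atp6v0d2, near 18.6 FPKM, lie far to the left of its other points.

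Reads of some members may be shared with other genes. Of the 50-base stretches in the GENCODE reference transcripts of Atp6v0c, 27.1% also occur in other genes' transcripts, mostly the processed pseudogene Atp6v0c-ps2 (26.9%). For Atp6v0a2 the share was 10.8%, with the antisense gene 4930404A12Rik, and Atp6v0b overlaps the antisense gene Gm12841. Whether strand was used in counting is not given in the sources used here, so reads of these pairs cannot be told apart. Atp6v0d1 and Atp6v0d2 shared no such stretch with each other, nor did Atp6v0a1, Atp6v0a2 and Tcirg1. These are shares of reference sequence and not of reads. The values of Atp6v0c and Atp6v0a2 are therefore uncertain by an amount that was not measured. The expected counts of both were whole numbers in all 12 libraries, where 9.49% to 9.89% of a library's values were not whole. What this means for shared reads was not tested.

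RANKL against M-CSF addresses what RANKL does to macrophages within 2 days. All 10 members were called, 9 higher and 1 lower, with 61.2% of all tested genes called, and for each the RANKL libraries did not overlap the M-CSF libraries, as for 65.7% of all tested genes. A gene was called at an adjusted p below 0.05 by edgeR's quasi-likelihood test with Benjamini-Hochberg adjustment over all genes tested. Of all tested genes 31.4% were called as higher and 29.8% as lower, so the number of called members is to be read against a background in which most genes were called. The median log2 fold change was 0.58 over the members and 0.003 over all genes tested. Atp6v0d2 stood apart in size: it rose 14.8-fold and had rank 151 of the 12168 tested genes by fold change. The other 8 that rose did so by 0.23 to 0.89 on the log2 scale, and Atp6v0a1 was the member that fell. Beside the members, all 8 osteoclast markers rose, while 6 of the 8 macrophage markers fell and 1 rose. Of the 8 neutrophil markers 5 rose and 2 fell, and 2 of the 5 B cell markers fell. The 1 tested erythroid marker and 1 of the 5 tested dendritic cell markers rose. The part of these markers in the members' differences was not tested.

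In the BMS309403 comparison with RANKL, 1 of the 10 members was called, Atp6v0d2, which fell. Of all tested genes 7.23% were called, 3.49% as higher and 3.74% as lower; 1 of 10 is near that background. Atp6v0d2 was also the member whose BMS309403 and RANKL libraries did not overlap, as for 23.2% of all tested genes. An unadjusted p below 0.05 in the same test was found for 2 members and for 2413 of the 12168 tested genes, a similar share. The 9 members not called had adjusted p-values of 0.193 to 0.995 in edgeR's quasi-likelihood test, and the 95% intervals of their log2 fold changes all lay between −0.17 and 0.19. The median was −0.03 over the members and −0.01 over all genes. Leaving out RANKL replicate 1 left 263 genes called of all tested, and leaving out BMS309403 replicate 2 left 316, against 880 with all libraries; Atp6v0d2 was the member called in both cases. Beside it, 6 of the 8 osteoclast markers fell and none rose, and 2 of the 8 macrophage markers rose and none fell; their part was not tested.

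With RHC80267 against RANKL, 7 of the 10 members were called, 6 higher and 1 lower, where 49.9% of all tested genes were called, 26.9% as higher and 23.0% as lower. The 7 called members were also the 7 whose libraries did not overlap between the groups, as for 57.9% of all tested genes. Atp6v0d2, Tcirg1 and Atp6v0b rose most, and Atp6v0a1 fell. The median log2 fold change was 0.15 over the members and 0.03 over all genes. Atp6v0a2, Atp6v0d1 and Atp6ap2 were not called, with adjusted p-values of 0.0991 to 0.508 in edgeR's quasi-likelihood test and 95% intervals between −0.15 and 0.16. Beside the members, all 8 osteoclast markers rose, and of the 8 macrophage markers 2 rose and 4 fell. Of the 8 neutrophil markers 6 fell, and their summed level in all RHC80267 libraries was under that in all RANKL libraries. Of the 5 tested B cell markers 1 rose and 3 fell, and 2 of the 5 tested dendritic cell markers fell. The 1 tested T and NK cell marker, Nkg7, fell, at 0.0906 CPM with RHC80267 and 0.645 with RANKL. So did the 1 tested erythroid marker, Hba-a1, at 0.109 and 0.664 CPM. Of the 5 stromal markers tested 4 rose, and the highest sum of all 8, 65.8 CPM, was in RHC80267 replicate 1. Alpl, a stromal marker that was not tested, was at 0 in all RANKL libraries and averaged 0.0359 CPM with RHC80267. The part of these in the members' differences was not tested; without RHC80267 replicate 1, 7 members were again called.

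Set against each other directly, at the same dose and time, RHC80267 and BMS309403 differed in 9 of the 10 members: 7 were higher and 2 lower with RHC80267, where 55.5% of all tested genes were called, 30.1% as higher and 25.5% as lower. The libraries of the 2 groups did not overlap for any member, as for 61.7% of all tested genes; for Atp6v0a2 the lowest RHC80267 library and the highest BMS309403 library both had 57.9 CPM after rounding. Atp6v0a1 and Atp6v0d1 were the members that were lower, and Atp6v0a2 was the one not called. The median log2 fold change was 0.16 over the members and 0.03 over all genes. All 8 osteoclast markers were higher with RHC80267 than with BMS309403, and 2 of the 8 macrophage markers were higher and 5 lower. Of the other markers, 6 of the 8 neutrophil, 3 of the 5 B cell and 2 of the 5 tested dendritic cell markers were lower. The 1 tested T and NK cell marker was also lower, and 4 of the 5 stromal markers tested were higher. The part of these markers was not tested. Both comparisons with RANKL rest on the same 3 RANKL libraries.

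**Figure D2:**
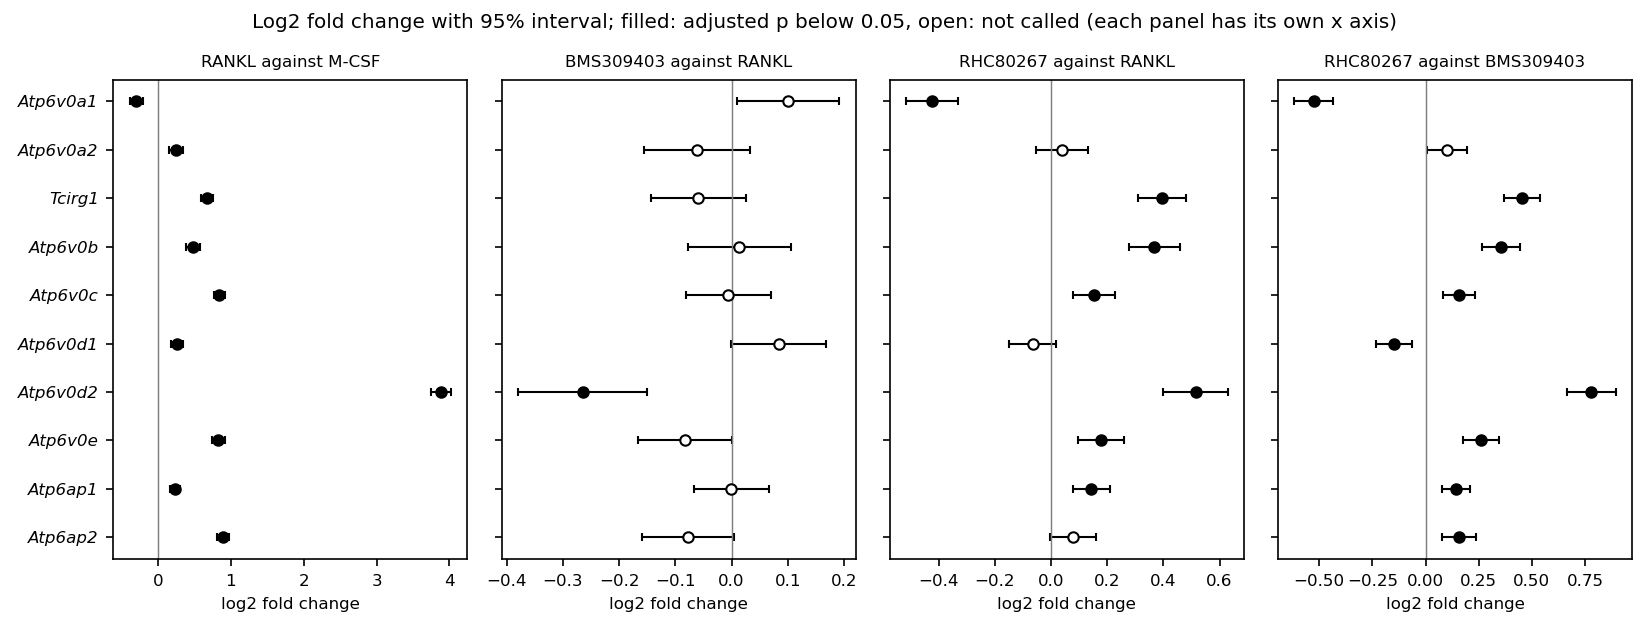
Log2 fold change (x axis) of each member (rows) in the 4 comparisons, with its 95% interval; filled points were called at an adjusted p below 0.05 and open points were not. Each panel has its own x axis. Atp6v0d2 is the right-most point with RANKL against M-CSF and the left-most with BMS309403 against RANKL, and Atp6v0a1 is left of 0 in the panels other than BMS309403 against RANKL.

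The d subunit joins the ring to the rotor and comes from 2 genes: Atp6v0d1 is made in most tissues, and Atp6v0d2 is the form known from osteoclasts, where mice without it form fewer fused cells. Atp6v0d2 (gene 242341, chr4:19876838-19922566, minus strand) had 910.0, 1013 and 908 CPM in the RHC80267 libraries, 544, 538 and 567 in the BMS309403 libraries, 737, 638 and 608 in the RANKL libraries and 42.9, 46.6 and 44.5 in the M-CSF libraries. The RHC80267 libraries were the highest and the M-CSF libraries the lowest, and no 2 groups overlapped. Against M-CSF, Atp6v0d2 rose with RANKL by 3.89 ± 0.07 (adjusted p = 2.95e-21) on the log2 scale (± SE, edgeR's quasi-likelihood test, as for all fold changes that follow). It fell with BMS309403 against RANKL, with a log2 fold change of −0.27 ± 0.06 (adjusted p = 0.00527), a change in level of −16.8%. Among the RANKL libraries, replicate 1 had both the highest osteoclast marker sum and the highest Atp6v0d2 level. Without it the log2 fold change was −0.18 (adjusted p = 0.0472), and leaving out each library in turn gave −0.32 to −0.18. The other alternatives gave adjusted p-values of 0.000203 to 0.00753 for it. With RHC80267 it rose by 0.51 ± 0.06 (adjusted p = 1.05e-07) against RANKL and by 0.78 ± 0.06 (adjusted p = 1.06e-10) against BMS309403. Atp6v0d1 (gene 11972, chr8:105524461-105566064, minus strand) had 234, 241 and 243 CPM in the RHC80267 libraries, 278, 259 and 259 in the BMS309403 libraries, 241, 248 and 261 in the RANKL libraries and 204, 205 and 217 in the M-CSF libraries. These values spread over a narrow range, with the M-CSF libraries lowest. Atp6v0d1 rose by 0.26 ± 0.04 (adjusted p = 9.51e-06) with RANKL against M-CSF. It was not called with BMS309403 against RANKL, at 0.08 ± 0.04 (adjusted p = 0.254), or with RHC80267 against RANKL, at −0.07 ± 0.04 (adjusted p = 0.192), and was lower with RHC80267 than with BMS309403 by a log2 fold change of −0.15 ± 0.04 (adjusted p = 0.00368).

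The a subunit holds the path of the protons through the membrane and directs the pump to its compartment. Tcirg1 encodes the a3 form of lysosomes and of the ruffled border, whose loss causes osteopetrosis. Tcirg1 (gene 27060, chr19:3896050-3907133, minus strand) had 1045, 1060.4 and 1006 CPM in the RHC80267 libraries, 745, 741 and 786 in the BMS309403 libraries, 811, 795 and 760.3 in the RANKL libraries and 490.4, 473 and 521 in the M-CSF libraries. The RHC80267 libraries were all above the rest and the M-CSF libraries all under it, while the BMS309403 and RANKL libraries overlapped. Tcirg1 rose by 0.67 ± 0.04 (adjusted p = 3.88e-12) on the log2 scale with RANKL against M-CSF, by 0.39 ± 0.04 (adjusted p = 5.41e-08) with RHC80267 against RANKL and by 0.45 ± 0.04 (adjusted p = 4.08e-09) with RHC80267 against BMS309403. Its log2 fold change was −0.06 ± 0.04 (adjusted p = 0.472) with BMS309403 against RANKL, with a 95% interval of −0.14 to 0.03. Atp6v0a1 encodes the a1 form, best known from synaptic vesicles. Atp6v0a1 (gene 11975, chr11:101009422-101063719, plus strand) had 173, 183 and 184 CPM in the RHC80267 libraries, 252, 261 and 263 in the BMS309403 libraries, 222, 246 and 256 in the RANKL libraries and 298, 301 and 292 in the M-CSF libraries. Its order was the opposite of that of Tcirg1, with the M-CSF libraries highest and the RHC80267 libraries lowest. Atp6v0a1 was lower with RANKL than with M-CSF, at −0.30 ± 0.04 (adjusted p = 3.20e-06), and lower with RHC80267 than with RANKL, at −0.42 ± 0.04 (adjusted p = 7.32e-08), or BMS309403, at −0.53 ± 0.04 (adjusted p = 1.64e-09). The BMS309403 and RANKL libraries overlapped for Atp6v0a1, which stood at 0.10 ± 0.04 (adjusted p = 0.193) in that comparison. Atp6v0a2 (gene 21871, chr5:124629052-124725079, plus strand) had 62.2, 57.9 and 62.2 CPM in the RHC80267 libraries, 56.1, 56.2 and 57.9 in the BMS309403 libraries, 58.2, 61.8 and 57.7 in the RANKL libraries and 50.7, 48.2 and 50.4 in the M-CSF libraries. The 3 groups with RANKL lay within a few CPM of each other, above the M-CSF libraries. It rose by 0.25 ± 0.05 (adjusted p = 6.68e-05) with RANKL against M-CSF. Its other log2 fold changes, −0.06 for BMS309403 against RANKL, 0.04 for RHC80267 against RANKL and 0.10 for RHC80267 against BMS309403, were not called (adjusted p = 0.515, 0.508 and 0.0674). Without RHC80267 replicate 2 the last of these was 0.13 and was called (adjusted p = 0.0271). Atp6v0a4, the fourth a subunit gene, was not found by symbol or alias in the deposited gene table, and so was not analysed here.

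The ring itself is built of proteolipids, each with the acidic residue that takes up a proton. Atp6v0c (gene 11984, chr17:24163865-24169678, minus strand) had 1884, 1900.0 and 1867 CPM in the RHC80267 libraries, 1739.7, 1624 and 1699 in the BMS309403 libraries, 1716, 1637 and 1729 in the RANKL libraries and 940.5, 924 and 972 in the M-CSF libraries. All libraries with RANKL stood well above the M-CSF libraries, and the BMS309403 and RANKL libraries overlapped. Atp6v0c rose by 0.84 ± 0.04 (adjusted p = 1.28e-14) on the log2 scale with RANKL against M-CSF, by 0.15 ± 0.04 (adjusted p = 0.00140) with RHC80267 against RANKL and by 0.16 ± 0.04 (adjusted p = 0.000846) with RHC80267 against BMS309403. The log2 fold change was −0.01 ± 0.04 (adjusted p = 0.957) with BMS309403 against RANKL. Atp6v0b (gene 114143, chr4:117884330-117887333, minus strand) had 564, 566 and 552 CPM in the RHC80267 libraries, 454, 422 and 439.7 in the BMS309403 libraries, 416, 439.8 and 447 in the RANKL libraries and 296, 302 and 335 in the M-CSF libraries. For this gene too the RHC80267 libraries formed the highest group and the M-CSF libraries the lowest. Atp6v0b rose by 0.48 ± 0.04 (adjusted p = 3.70e-09) with RANKL against M-CSF, by 0.37 ± 0.04 (adjusted p = 4.42e-07) with RHC80267 against RANKL and by 0.35 ± 0.04 (adjusted p = 5.32e-07) with RHC80267 against BMS309403, and stood at 0.01 ± 0.04 (adjusted p = 0.910) with BMS309403 against RANKL. Atp6v0e encodes the small e subunit at the side of the ring. Atp6v0e (gene 11974, chr17:26676396-26699647, plus strand) had 257, 240.1 and 239 CPM in the RHC80267 libraries, 212, 203 and 199 in the BMS309403 libraries, 223, 209 and 218 in the RANKL libraries and 119, 126 and 121 in the M-CSF libraries. The lowest value with RANKL was above the highest with M-CSF. It rose by 0.83 ± 0.04 (adjusted p = 1.25e-13) with RANKL against M-CSF, by 0.18 ± 0.04 (adjusted p = 0.000815) with RHC80267 against RANKL and by 0.26 ± 0.04 (adjusted p = 1.00e-05) with RHC80267 against BMS309403, and was not called with BMS309403 against RANKL, at −0.08 ± 0.04 (adjusted p = 0.255).

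The accessory proteins assist the assembly and trafficking of the pump. Atp6ap1 encodes Ac45, which is known to guide the pump to the ruffled border, and Atp6ap2 encodes the protein also known as the prorenin receptor. Atp6ap1 (gene 54411, chrX:74297097-74304721, plus strand) had 597, 597 and 583 CPM in the RHC80267 libraries, 532, 529.8 and 547 in the BMS309403 libraries, 537, 541 and 531 in the RANKL libraries and 459, 459 and 452 in the M-CSF libraries. The groups were close to each other for this gene, yet only the BMS309403 and RANKL libraries overlapped between neighbouring groups. Atp6ap1 rose by 0.23 ± 0.03 (adjusted p = 2.08e-06) on the log2 scale with RANKL against M-CSF, by 0.14 ± 0.03 (adjusted p = 0.000871) with RHC80267 against RANKL and by 0.14 ± 0.03 (adjusted p = 0.000697) with RHC80267 against BMS309403, with −0.0005 ± 0.03 (adjusted p = 0.995) for BMS309403 against RANKL. Atp6ap2 (gene 70495, chrX:12587759-12617051, plus strand) had 522, 545 and 519 CPM in the RHC80267 libraries, 489.7, 479 and 455 in the BMS309403 libraries, 522, 501 and 478 in the RANKL libraries and 273, 272 and 265 in the M-CSF libraries. The M-CSF libraries stood apart from all others, and the RANKL libraries overlapped those of both inhibitor groups. Atp6ap2 rose by 0.89 ± 0.04 (adjusted p = 2.03e-14) with RANKL against M-CSF. It was not called with RHC80267 against RANKL, at 0.08 ± 0.04 (adjusted p = 0.0991), but at 0.11 it was without RANKL replicate 1 (adjusted p = 0.0326). It stood at −0.08 ± 0.04 (adjusted p = 0.279) with BMS309403 against RANKL, and was higher with RHC80267 than with BMS309403 by 0.16 ± 0.04 (adjusted p = 0.00185).

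**Figure D3:**
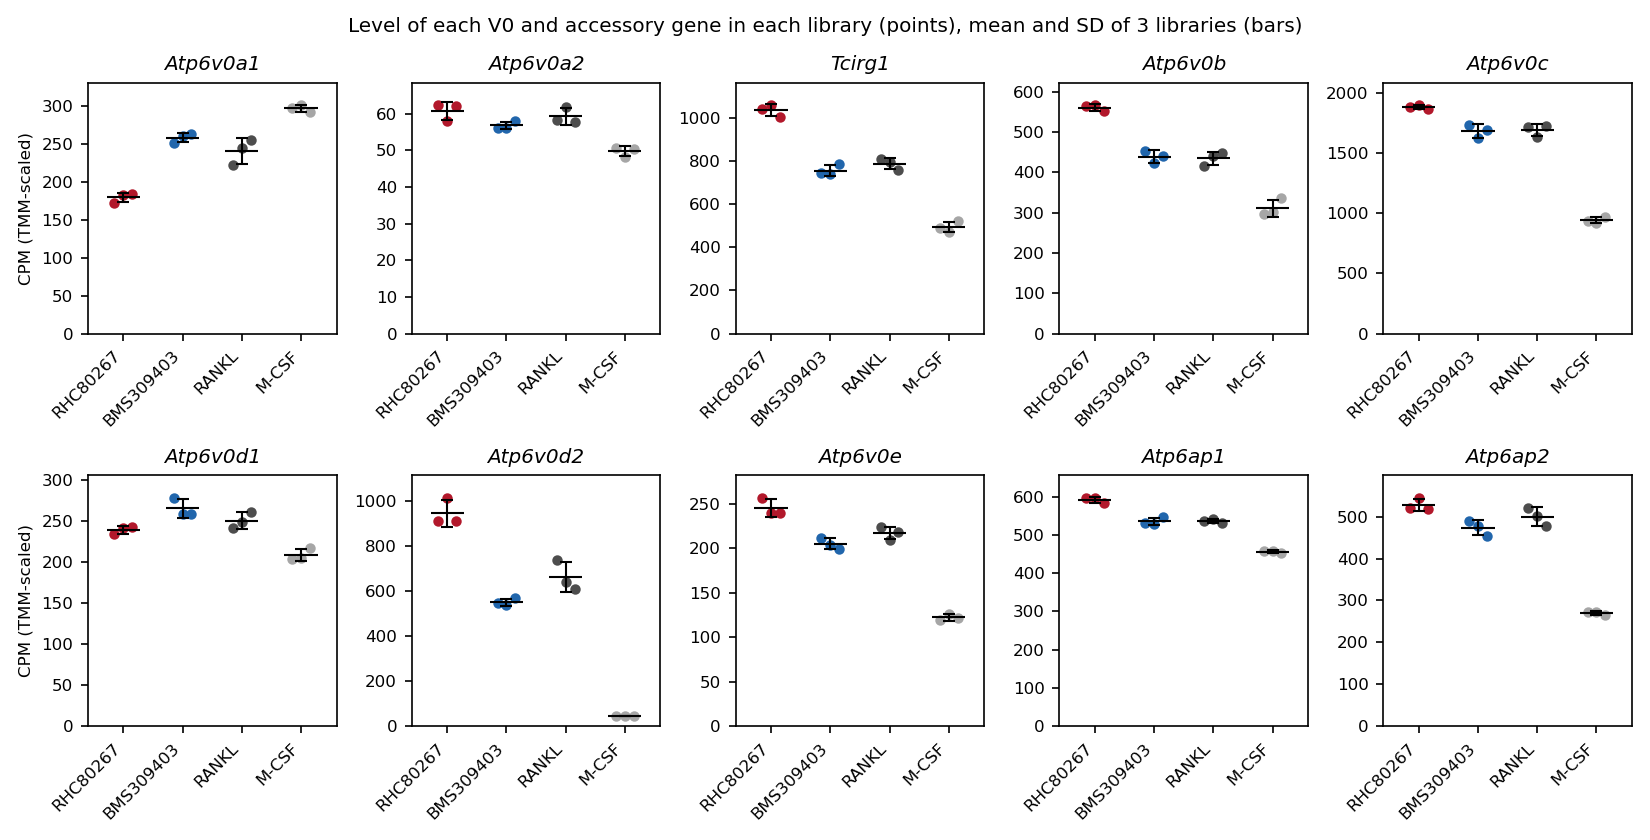
CPM, scaled by TMM, for each member in each library (points), with the mean (horizontal line) and SD (vertical bar) of 3 libraries per group; each panel has its own y axis from 0. In 7 panels the RHC80267 points are all above the RANKL points or all below them, and the Atp6v0a1 panel has its highest group, M-CSF, where the Tcirg1 panel has its lowest.

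The composition of the subunits that come from several genes was given as shares of FPKM within a library, which do not depend on the scaling between libraries. Atp6v0d2 made up 70.2, 71.8 and 69.4% of the d subunit FPKM in the RHC80267 libraries, 54.2, 55.7 and 57.0% in the BMS309403 libraries, 64.8, 60.8 and 58.5% in the RANKL libraries and 10.6, 11.3 and 10.4% in the M-CSF libraries. It was thus the major d transcript in every library with RANKL and the minor one in every M-CSF library. The share was 50.6 percentage points higher with RANKL than with M-CSF. It was lower with BMS309403 than with RANKL, by a difference of −5.74 points (−4.02 without RANKL replicate 1). It was 9.09 points higher with RHC80267 than with RANKL and 14.8 points higher than with BMS309403. Each of these 4 differences had p = 0.1 in a 2-sided exact permutation test, the smallest p that 3 against 3 libraries can give, and the libraries of the 2 groups did not overlap. Of the FPKM summed over Atp6v0a1, Atp6v0a2 and Tcirg1, Tcirg1 made up 87.8, 87.7 and 86.8% in the RHC80267 libraries, 79.3, 78.1 and 79.4% in the BMS309403 libraries, 81.7, 80.2 and 79.2% in the RANKL libraries and 68.5, 67.8 and 69.7% in the M-CSF libraries. Atp6v0a1 made up most of the rest, 10.2% ± 0.448, 18.3% ± 0.729, 16.8% ± 1.20 and 28.1% ± 0.908 with RHC80267, BMS309403, RANKL and M-CSF (SD, n = 3 each). Tcirg1's share was 11.7 points higher with RANKL than with M-CSF, 7.02 points higher with RHC80267 than with RANKL and 8.48 points higher with RHC80267 than with BMS309403 (exact permutation p = 0.1 each). The difference was −1.46 points with BMS309403 against RANKL, where the libraries overlapped (exact permutation p = 0.3), and −0.79 points without RANKL replicate 1.

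**Figure D4:**
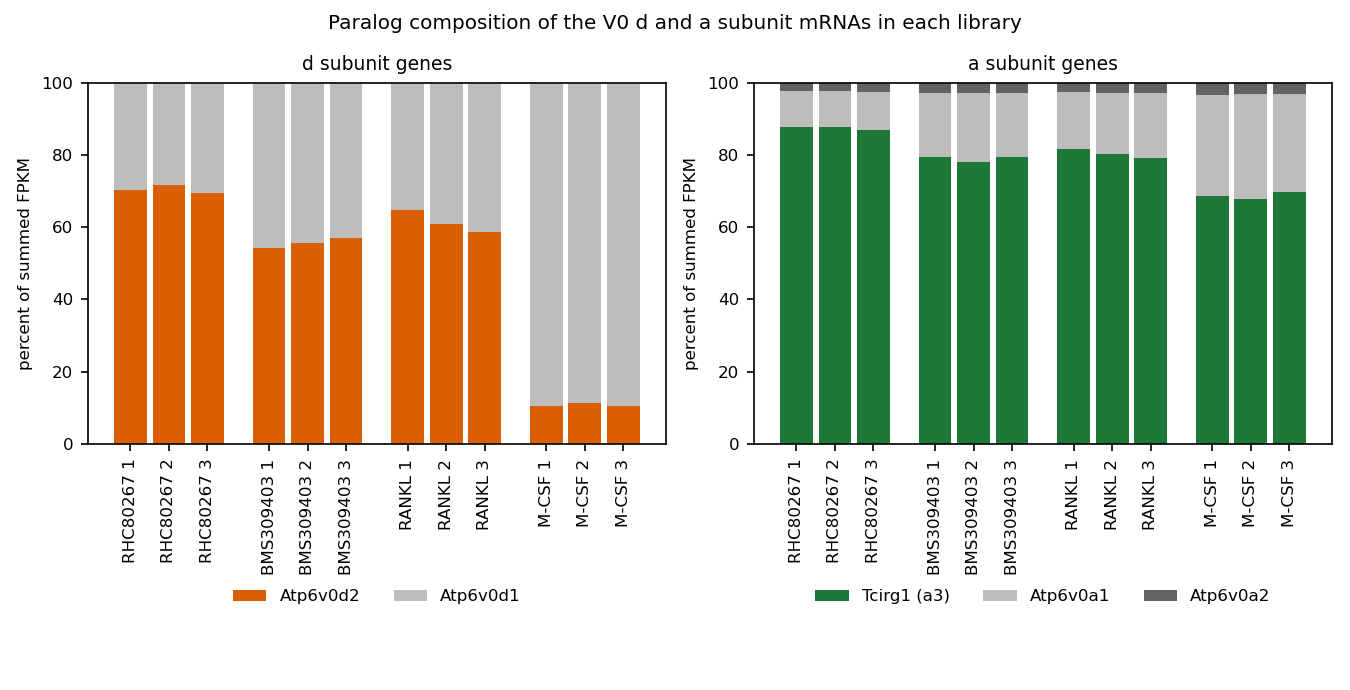
Percent of the summed FPKM of the d subunit genes (left) and of the a subunit genes (right) in each of the 12 libraries, 1 stacked bar per library. The Atp6v0d2 part is about 10.8% with M-CSF and the larger part of the bar in each library with RANKL; the Tcirg1 part is tallest with RHC80267 and shortest with M-CSF.

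Other genes of the pump were read through gene lists. The counts in all lists are to be read against the share of all tested genes called. That share was 61.2% with RANKL against M-CSF, 7.23% with BMS309403 against RANKL and 49.9% with RHC80267 against RANKL. Of the V1 sector, whose genes encode the ATP-splitting head, the stalks and the regulatory parts, 9 of 13 listed genes were in the table and tested. With RANKL against M-CSF 8 of the 9 rose and 1 fell (median log2 fold change 0.85). Atp6v1d, a subunit of the central rotor, had 273 ± 9.07 CPM with RANKL and 98.9 ± 2.72 CPM with M-CSF (SD, n = 3 each) and rose by 1.46 ± 0.05 (adjusted p = 7.26e-17). Atp6v1b2, of the nucleotide-binding head, rose by 1.38 ± 0.05 (adjusted p = 5.34e-16) and Atp6v1c1, of the stalk that joins V1 to V0, by 1.06 ± 0.04 (adjusted p = 4.96e-15). The one that fell, Atp6v1g2, at −0.45 (adjusted p = 0.00913), is named after its value was seen. It had the lowest level of the 9, at 3.62 ± 0.607 CPM with RANKL and 4.95 ± 0.343 CPM with M-CSF (SD, n = 3 each). With BMS309403 against RANKL 2 fell and none rose: Atp6v1b2 had a log2 fold change of −0.20 ± 0.05 (adjusted p = 0.0160) and Atp6v1d one of −0.16 ± 0.04 (adjusted p = 0.0258), and Atp6v1h, a regulatory subunit, stood at −0.10 ± 0.04 (adjusted p = 0.0960). Neither call held without RANKL replicate 1 (−0.13 for Atp6v1b2 and −0.14 for Atp6v1d) or without BMS309403 replicate 2 (−0.17 and −0.14), and that of Atp6v1d was also lost without RANKL replicate 2 (−0.17) or BMS309403 replicate 3 (−0.12). Atp6v1h, in contrast, was called without RANKL replicate 3 (−0.13, adjusted p = 0.0385). With RHC80267 against RANKL 7 of the 9 rose and none fell (median 0.22), among them Atp6v1e1, of the outer stalk, by 0.38 ± 0.04 (adjusted p = 3.56e-08), Atp6v1h by 0.27 ± 0.04 (adjusted p = 2.47e-06) and Atp6v1b2 by 0.32 ± 0.05 (adjusted p = 1.23e-05). The medians of the 10 V0 members in these 3 comparisons were 0.58, −0.03 and 0.15, beside 0.85, −0.10 and 0.22 for V1; the difference between the sectors was not tested.

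The 3 factors that assemble V0 in the endoplasmic reticulum, Vma21, Tmem199 and Ccdc115, are chaperones of the sector. With RANKL against M-CSF 2 rose, Vma21 by 0.67 ± 0.05 (adjusted p = 3.22e-11) and Tmem199 by 0.24 ± 0.06 (adjusted p = 0.00278), and Ccdc115 was not called, at 0.07 ± 0.05 (adjusted p = 0.174). With RHC80267 against RANKL 2 fell and none rose: Ccdc115 had 43.3 ± 0.156 CPM with RHC80267 and 58.2 ± 1.72 CPM with RANKL (SD, n = 3 each), a log2 fold change of −0.43 ± 0.05 (adjusted p = 2.05e-07), and Vma21 had 79.2 ± 1.53 CPM with RHC80267 and 99.5 ± 0.813 CPM with RANKL, a log2 fold change of −0.33 ± 0.04 (adjusted p = 3.11e-06). Both were also lower with RHC80267 than with BMS309403, at −0.45 and −0.34. None of the 3 was called with BMS309403 against RANKL, and their log2 fold changes were 0.02 for Ccdc115, 0.01 for Vma21 and 0.0007 for Tmem199. Rnasek, a further V0 component, rose by 0.27 ± 0.04 (adjusted p = 1.76e-05) with RANKL against M-CSF and by 0.26 ± 0.04 (adjusted p = 3.78e-05) with RHC80267 against RANKL, and stood at 0.03 ± 0.04 (adjusted p = 0.809) with BMS309403 against RANKL.

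Regulators of the joining and parting of V1 and V0 were mixed in direction. Of the 7 tested of 8 listed, 4 rose and 1 fell with RANKL against M-CSF: Oxr1 and Ncoa7, which share the TLDc domain, stood at 0.42 ± 0.05 (adjusted p = 6.11e-08) and −0.45 ± 0.05 (adjusted p = 2.11e-07), and Rogdi, of the rabconnectin complex, at 0.43 ± 0.06 (adjusted p = 1.51e-06). None was called with BMS309403 against RANKL, where these 3 stood at −0.08, 0.07 and −0.07. With RHC80267 against RANKL 2 rose and 1 fell: Dmxl1 and Dmxl2, the large subunits of the rabconnectin complex, stood at 0.38 ± 0.05 (adjusted p = 1.06e-06) and −0.31 ± 0.05 (adjusted p = 3.58e-05), and Oxr1 at 0.30 ± 0.05 (adjusted p = 1.02e-05).

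Acid secretion needs protons, a chloride path and the transport of the pump to the membrane. Of 6 partner genes, 5 rose and 1, Plekhm1, fell with RANKL against M-CSF. Car2, the carbonic anhydrase that supplies the protons, had 88.8 ± 12.8 CPM with RANKL and 0.206 ± 0.227 CPM with M-CSF (SD, n = 3 each). Snx10, a sorting nexin needed for resorption, rose by 1.59 ± 0.06 (adjusted p = 2.74e-15), and Clcn7, the chloride-proton exchanger, by 0.80 ± 0.04 (adjusted p = 9.41e-14). With BMS309403 against RANKL 2 fell and none rose: Car2 had 65.3 ± 5.01 CPM with BMS309403 and 88.8 ± 12.8 CPM with RANKL, a log2 fold change of −0.44 ± 0.08 (adjusted p = 0.00170). Slc4a2, the chloride-bicarbonate exchanger, had one of −0.29 ± 0.06 (adjusted p = 0.00752), which was no longer called without RANKL replicate 1 (−0.19) or BMS309403 replicate 2 (−0.23). Snx10 stood at −0.19 ± 0.06 (adjusted p = 0.0631), and was called at −0.23 without RANKL replicate 3 (adjusted p = 0.0289). All 6 rose with RHC80267 against RANKL, with Snx10 at 0.71 ± 0.06 (adjusted p = 2.50e-09), Plekhm1, a lysosome trafficking gene, at 0.59 ± 0.06 (adjusted p = 1.97e-08) and Slc4a2 at 0.61 ± 0.06 (adjusted p = 3.34e-08).

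Of 5 transcription factors known to drive V-ATPase genes, 2 rose and 2 fell with RANKL against M-CSF. Nfatc1, the main factor of osteoclast formation, had 239 ± 26.4 CPM with RANKL and 66.4 ± 1.24 CPM with M-CSF (SD, n = 3 each), Tfec stood at 0.34 ± 0.05 (adjusted p = 5.97e-06) and Tfe3 at −0.28 ± 0.04 (adjusted p = 1.93e-06). In the BMS309403 comparison with RANKL 1 fell, Nfatc1, at 194 ± 11.2 CPM with BMS309403 and 239 ± 26.4 CPM with RANKL, while Tfe3 stood at 0.09 ± 0.04 (adjusted p = 0.211) and Tfec at −0.08 ± 0.05 (adjusted p = 0.445). With RHC80267 against RANKL 3 rose and 2 fell: Nfatc1 had 396 ± 8.10 CPM with RHC80267 and 239 ± 26.4 CPM with RANKL, Mitf a log2 fold change of 0.27 ± 0.05 (adjusted p = 6.44e-05) and Tfe3 one of −0.23 ± 0.04 (adjusted p = 4.67e-05).

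**Figure D5:**
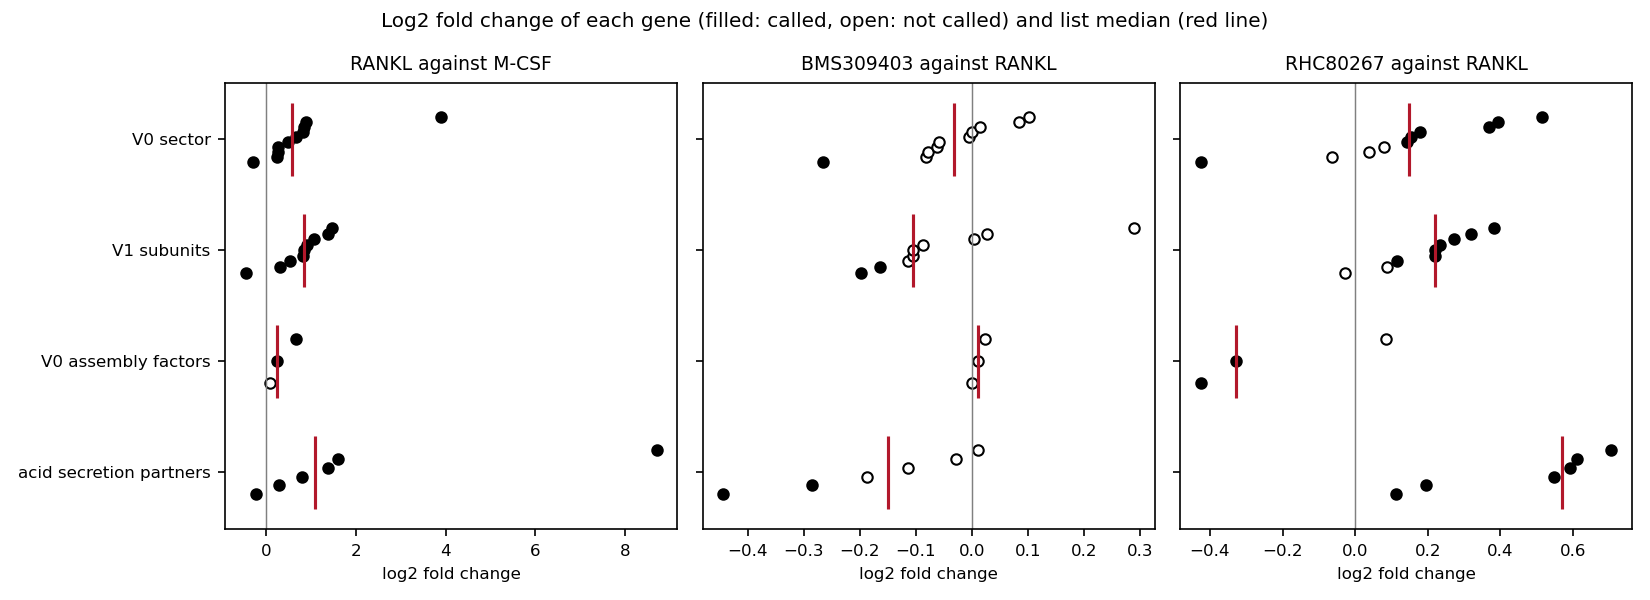
Log2 fold change (x axis) of each gene of the V0 sector, the V1 sector, the V0 assembly factors and the acid secretion partners (rows) in 3 comparisons; filled points were called, open points were not, and a red line marks the median of the list. Each panel has its own x axis. The assembly factors are the row whose median, −0.33, is below 0 with RHC80267 against RANKL.

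The genes whose levels across the 12 libraries were most like those of Atp6v0d2, by Pearson's r of log2(CPM + 1) among 9840 tested genes that averaged 5 CPM or more, were Rufy4 (r = 0.9997), Slc9b2 (0.9994), Ocstamp, Src and Tm4sf19 (0.9993 each). Rufy4 averaged 89.6 CPM with RHC80267, 38.5 with BMS309403 and 51.0 with RANKL, and had no count in the M-CSF libraries. Src averaged 197, 107, 133 and 5.32 CPM with RHC80267, BMS309403, RANKL and M-CSF. For Tcirg1 they were Myo10 (0.9954), Snd1 (0.9949), Slc37a2 (0.994), Mmachc (0.9933) and Idh3b (0.993). Slc37a2 averaged 916, 565, 647 and 304 CPM in the same order of groups. The libraries fall into separate groups, so these values largely reflect differences between groups and carry no p. They do not show that the genes change by the same fold among the groups with RANKL.

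In the authors' deposited table of comparisons, at a q-value below 0.05, 9 members were higher and 1 lower with RANKL against M-CSF, none higher and 1 lower with BMS309403 against RANKL, 6 higher and 1 lower with RHC80267 against RANKL, and 7 higher and 2 lower with RHC80267 against BMS309403. Of all genes with a q-value in the authors' deposited table, which include genes of low counts, 37.7% passed with RANKL against M-CSF (19.5% higher, 18.2% lower) and 3.27% with BMS309403 against RANKL (1.95% higher, 1.32% lower). The authors' deposited table has 28.2% passing with RHC80267 against RANKL (13.4% higher, 14.8% lower) and 33.2% with RHC80267 against BMS309403 (16.1% higher, 17.2% lower). For Atp6v0d2 the authors' deposited table gives log2 fold changes of 3.89, −0.26, 0.49 and 0.75 in that order of comparisons.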

How the data were processed

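The authors deposited 1 table of expected counts and FPKM per gene for 12 libraries, per the file headers; 9.49% to 9.89% of a library's count values are not whole, while all values of the 10 members are. The deposited table also holds the authors' log2 fold changes, p-values and q-values for 4 comparisons. Per the submitters' processing notes, the tools were RSEM 1.3.1, Bowtie2 and DESeq2 1.4.5, whose order, settings and strand use are not given there or in the labels. RNA was prepared as an mRNA library from total RNA, per the labels' protocols. The deposited positions match GRCm38: 77.9% of 16522 matched genes have the same start and end in the GRCm38.p6 reference.

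The authors' expected counts were rounded. The filterByExpr filter, by group, took out 4402 genes with low counts and left 12168 to test, and TMM factors scaled the libraries. All 12 libraries entered 1 quasi-likelihood fit (edgeR 4.0.16, R 4.3.3; group as the only term, 8 residual degrees of freedom, biological coefficient of variation 0.0371), and p-values were adjusted by Benjamini-Hochberg over all tested genes. Paralog shares used the deposited FPKM and a 2-sided exact permutation test. Beside the 10 members, up to 3 genes per list with the smallest p in a comparison are named, and 5 genes most like Atp6v0d2 and Tcirg1. The members and lists were chosen with earlier results of these data known. Alternatives were DESeq2 1.42.0, RLE factors, limma-voom (limma 3.58.1), other filters, only the groups compared, a replicate block and leaving out each library. Each member had at least 765 counts in each library. Promoter sequences are from RefSeq tables, and the shared stretches and overlapping genes are from the GENCODE transcripts and annotation.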

Additional observations from a re-analysis of the deposited data

How the results depend on the processing

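Each of the 10 members kept its side of the threshold and its direction in all 4 comparisons under DESeq2, RLE factors, no filter, a filter of at least 1 CPM in at least 3 libraries, limma-voom, only the groups compared and the replicate block, apart from values near 0 that were never called. With each library left out, 2 members not called otherwise were called, Atp6ap2 and Atp6v0a2, each once. Replicate numbers were not taken to pair libraries: 18 correlations of the deviations of same-numbered libraries ran between −0.092 and 0.094, none over 0.1, those of differently numbered ones reached 0.105, and not every library correlated best with its own number. With the replicate block 10, 1, 7 and 9 members were called for RANKL against M-CSF, BMS309403 against RANKL, RHC80267 against RANKL and RHC80267 against BMS309403, as without it, and 859 genes in all for BMS309403 against RANKL, against 880. The changes of sign were all in BMS309403 against RANKL, in log2 fold changes: Atp6v0c was 0.0022 with no filter and 0.0004 with the 1 CPM filter, and −0.0249 to 0.0260 with each library left out. Atp6ap1 was 0.0035 with DESeq2, 0.0030 with RLE factors, 0.0074 with no filter, 0.0055 with the 1 CPM filter and 0.0037 with only the groups compared, and −0.0082 to 0.0129 with each library left out. Leaving out each library gave −0.0159 to 0.0453 for Atp6v0b, −0.0104 to 0.0645 for Rnasek, −0.0082 to 0.0634 for Vma21, −0.0637 to 0.0470 for Tmem199 (−0.0020 with limma-voom) and −0.0065 to 0.0681 for Ccdc115. Snx10 was called in that comparison with no filter (−0.18) and with only the groups compared (−0.18). The number of genes called with BMS309403 against RANKL ranged over 263 to 1011 with each library left out. With expected counts in place of FPKM, which weights the genes by length, the Atp6v0d2 share differed by 54.8 points for RANKL against M-CSF and 12.3 for RHC80267 against BMS309403, and the Tcirg1 share by 13.6 for RANKL against M-CSF, 8.76 for RHC80267 against RANKL and 10.6 for RHC80267 against BMS309403. With 3 libraries a group no share can pass an exact test at 0.05.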
